A study of Mus musculus with 79 samples.

Results

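The regions described here were the tiles inside genes that carried the most H3K36me3 (trimethylation of lysine 36 of histone H3) in the hypothalamus of adult wild-type mice. The genome was divided by the authors into 2725549 overlapping windows of 2000 bp placed every 1000 bp, and 25472 of them were members. A member lay on an autosome, wholly inside a gene of the RNA table and more than 5 kb from any gene start, with a mean H3K36me3 of at least 3 reads scaled to the library's total (RPM, relative to 1000000 uniquely mapped reads) and a mean input of at most 1.5 RPM in the wild-type libraries. Of the 822907 tiles inside genes and away from starts, 822378 were within the input limit, and the members were 3.10% of these and 1.03% of the 2462755 autosomal tiles. The other 796906 tiles that met all limits but the one on H3K36me3 are called other gene-body tiles. Another 115 tiles were past the H3K36me3 limit but were left out for high input.

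Wild-type mice, named +/+, were compared with Δ/D329A mice of about 14 weeks of age on a C57BL/6Babr background. The maternal Dnmt3a allele of Δ/D329A mice was Δ, a deletion of exon 18 made by Zp3-Cre in the oocyte, and the paternal allele carried D329A, a missense mutation in the PWWP domain. The whole animal therefore had the D329A allele as its functional copy of Dnmt3a from fertilisation, and both alleles changed together relative to +/+. Chromatin of 3 +/+ and 3 Δ/D329A hypothalami gave H3K4me3, H3K27me3, H3K36me3 and input libraries from each animal, and RNA was sequenced from 5 +/+ and 4 Δ/D329A hypothalami. The sample labels used here give no sex, and the data of the ChIP and RNA animals differed in it. All 9 RNA libraries had Xist, the RNA of the inactive X chromosome, at 13.9 to 24.0 RPKM and 4 genes of chromosome Y at no more than 0.0205 RPKM, as in females. The 6 ChIP inputs had 0.415 to 0.429 of the autosomal level on chromosome X and 0.376 to 0.407 RPM per tile over the same genes of chromosome Y, as in males. The genotypes were therefore compared within 1 sex for each assay, while every comparison of a histone mark with RNA was made between animals of different sex.

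H3K36me3 is laid down mainly by SETD2, which travels with elongating RNA polymerase II, so that the mark covers the bodies of transcribed genes and rises towards their 3′ ends. PWWP domains, such as those of DNMT3A and DNMT3B, bind nucleosomes methylated at H3K36, and D329A weakens that binding. H3K4me3 is the mark of active and CpG-rich promoters, and H3K27me3 is laid down by Polycomb repressive complex 2, whose activity is inhibited by methylated H3K36. Genes for KRAB zinc finger proteins are an exception among gene bodies, since their 3′ exons carry H3K36me3 together with H3K9me3, a repressive mark that was not measured here.

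ChIP libraries held between 12676361 and 30207875 uniquely mapped reads, and RNA libraries between 3871244 and 9969030 reads on genes. At the members the median tile held 55 to 78 reads in the H3K36me3 libraries, 14 to 28 in the inputs, 4 to 11 in the H3K4me3 libraries and 2 to 4 in the H3K27me3 libraries, so the last were the least precise. The H3K4me3 library of Δ/D329A replicate 1 stood apart, with an autosomal median of 0.376 RPM against 0.129 to 0.20 RPM in the other H3K4me3 libraries. For some of the H3K4me3 results, values without this library are also given. The level of mitochondrial tiles also differed between libraries, from 4.07 to 83.0 RPM per tile, and its part in the results was tested only as a block in the fits. The RNAs of 18 genes listed for hypothalamic neurons ran in +/+ from 0.645 ± 0.27 RPKM for Mc4r to 257 ± 62.4 RPKM for Pmch (SD, n = 5), and some neuropeptides were low, such as Crh with 1.34 RPKM and Agrp with 2.83 RPKM. The pituitary hormone RNAs Prl and Gh were present and uneven (3.74 ± 4.06 and 1.71 ± 2.18 RPKM). The samples were whole tissue, so fewer cells of a type and a lower level per cell cannot be told apart.

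The sequences of the most strongly marked members showed what these regions were. The 5 members with the highest H3K36me3, taking 1 per gene, all overlapped coding exons of zinc finger genes. There the coding sequence repeats a C2H2 finger and the linker that joins it to the next. A coding stretch of 2 of these members is given below on the minus strand of GRCm38 (RefSeq), 5′ to 3′, with each match to the linker motif ACNGGNGANAANCC in capitals.
Zfp763 chr17:33018427-33018678: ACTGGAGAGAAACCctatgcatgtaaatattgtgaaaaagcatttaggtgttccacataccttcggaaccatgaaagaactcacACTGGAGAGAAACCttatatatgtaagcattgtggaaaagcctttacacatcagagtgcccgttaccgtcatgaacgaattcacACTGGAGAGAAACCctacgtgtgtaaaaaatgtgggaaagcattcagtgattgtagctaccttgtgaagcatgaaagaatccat
Zfp458 chr13:67256118-67256369: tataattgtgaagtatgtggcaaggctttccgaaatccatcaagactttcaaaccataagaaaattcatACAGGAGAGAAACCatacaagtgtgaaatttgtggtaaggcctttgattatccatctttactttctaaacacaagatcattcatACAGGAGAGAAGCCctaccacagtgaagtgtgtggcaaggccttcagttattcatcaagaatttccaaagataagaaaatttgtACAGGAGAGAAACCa

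The finger repeats can be read between the capitals, although the last full unit of Zfp458 does not keep all the cysteines and histidines of a C2H2 finger. Both strands were searched (GGNTTNTCNCCNGT on the other strand), and the linker motif occurred 9 times in the Zfp763 tile, 13 times in the Zfp458 tile, 11 times in the Zfp712 tile, 8 times in the Zfp810 tile and 6 times in the Zfp68 tile. A linker match was found in 443 members (1.74%), in 0.352% of other gene-body tiles and in 0.389% of autosomal tiles. A match describes the sequence and does not show that the tile is transcribed or bound.

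The H3K36me3 at these tiles was high in all 6 libraries, and the Δ/D329A libraries varied among themselves by about as much as the genotypes differed. The Zfp763 tile (chr17:33018001-33020000) had 17.2, 16.8 and 16.3 RPM in the 3 +/+ libraries and 14.4, 16.3 and 14.6 RPM in the Δ/D329A libraries, and was the highest of all members. The Zfp458 tile (chr13:67256001-67258000) had 15.2, 17.5 and 15.1 RPM in +/+ and 14.6, 15.9 and 13.3 RPM in Δ/D329A. The Zfp712 tile (chr13:67040001-67042000) had 16.1, 17.2 and 14.4 RPM in +/+ and 12.2, 15.3 and 13.3 RPM in Δ/D329A. Replicate 2 was the highest Δ/D329A library in all 3 tiles, and through it the genotypes overlapped at Zfp458 and Zfp712 and nearly met at Zfp763. The Zfp810 tile (chr9:22278001-22280000) averaged 15.9 ± 0.30 RPM in +/+ and 14.6 ± 1.94 RPM in Δ/D329A, where the libraries ran from 12.8 to 16.7 RPM, and the Zfp68 tile (chr5:138606001-138608000) 15.8 ± 1.17 and 14.5 ± 1.19 RPM (SD, n = 3). The host genes were transcribed at modest levels, from 1.46 ± 0.21 RPKM for Zfp712 to 6.76 ± 1.0 RPKM for Zfp68 in +/+. Reads of 75 bp can be hard to place uniquely in a gene family this repetitive, so values at single Zfp genes are uncertain.

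Zinc finger genes took a growing share of the tiles as H3K36me3 rose. Genes whose symbol starts with Zfp held 1010 members (3.97%) but 0.892% of the eligible tiles, and 13.8% of their eligible tiles were members. Among members at 3 to 4 RPM, 1.94% of 21851 tiles were in a Zfp gene and 0.595% held a linker. Among the 203 members at 8 RPM or more, 85.7% were in a Zfp gene and 64% held a linker. The members in Zfp genes also differed from the rest in the marks that did not choose them. Their mean H3K27me3 was 0.404 ± 0.021 RPM in +/+ against 0.213 ± 0.016 RPM in the other members, and their mean H3K4me3 was 0.469 ± 0.029 against 0.409 ± 0.026 RPM (SD, n = 3 libraries). The median H3K27me3 over both genotypes was 0.130 RPM at 3 to 4 RPM of H3K36me3 and 0.737 RPM at 8 RPM or more against 0.646 RPM in the median autosomal tile. Of the 203 tiles, 15.8% were at 1 RPM or more of H3K27me3, compared with 0.435% of the members at 3 to 4 RPM. No test was made of these comparisons, since tiles overlap and share libraries.

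**Figure D1:**
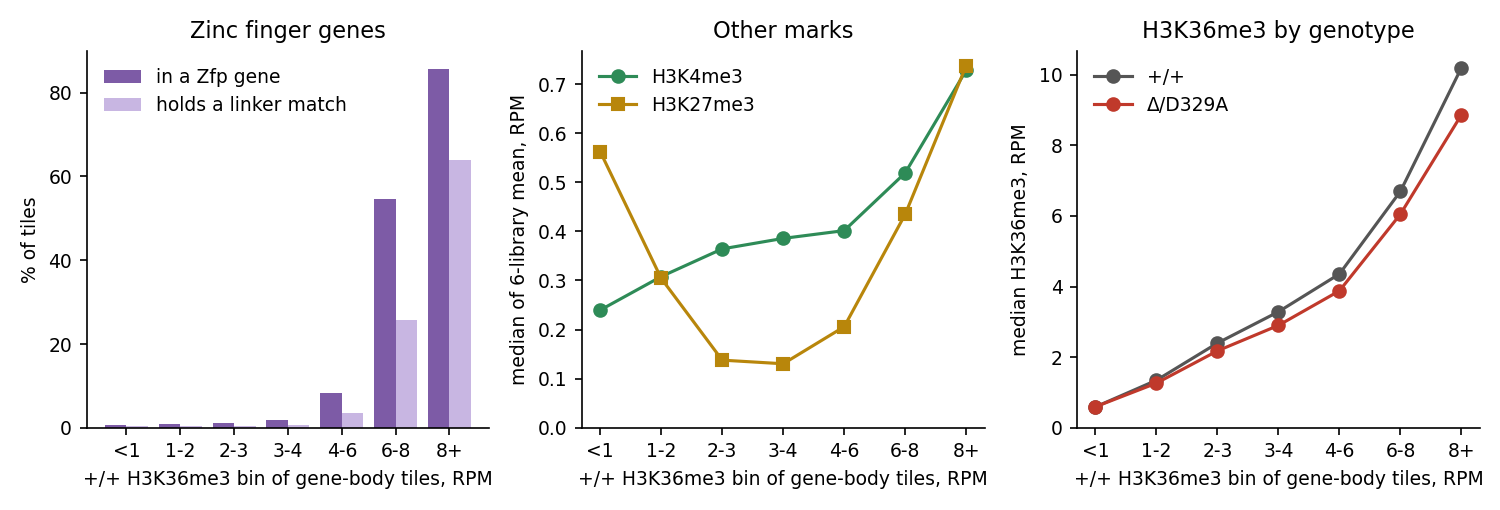
Gene-body tiles grouped by their +/+ H3K36me3 in RPM (horizontal axes). Bars give the percent of tiles in a Zfp gene or with a linker match, the middle lines the median H3K4me3 and H3K27me3 over the 6 libraries in RPM, and the right lines the median H3K36me3 of each genotype in RPM. The Zfp share reached 85.7% in the highest bin, H3K27me3 fell from 0.562 RPM below 1 RPM of H3K36me3 to 0.130 RPM at 3 to 4 RPM and was 0.737 RPM in the highest bin.

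Most members were far from these extremes. Their median +/+ H3K36me3 was 3.35 RPM, 3621 members were at 4 RPM or more, 480 at 6 or more and 105 at 10 or more. The members nearest the limit lay in Rwdd4a and Usp24 (both 3.00005 RPM), and the tiles just below it lay in Adam23 and Enoph1, which rounded to the limit itself, so the limit cuts a continuous range of levels. The members lay in 4846 of the 15027 genes that had an eligible tile (32.2%), and 743 members were inside 2 or more overlapping genes. Host genes were longer than the other genes with eligible tiles, with a median of 42.4 kb against 24.6 kb. The median host held 4 members, 934 hosts held 1 and 147 held 20 or more. Across autosomes, the share of eligible tiles that were members ran from 2.30% on chromosome 19 to 4.16% on chromosome 9.

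Overlapping and adjoining members formed 10218 runs that covered 36.6 Mb, with a median length of 3000 bp, and 271 of them were 10 kb or longer. The longest, of 47 kb, covered Spna2 (chr2:29979001-30026000), which encodes the brain spectrin alpha chain of the membrane skeleton. Its mean H3K36me3 was 3.74, 3.54 and 3.72 RPM in +/+ and 3.19, 3.45 and 3.11 RPM in Δ/D329A. The +/+ libraries chose the tiles of every run, which raises their values there, so these differences are described only. Its RNA was among the higher of the hosts, with 57.6 ± 14.2 RPKM in +/+ and 66.2 RPKM in Δ/D329A (limma, adjusted p = 0.758). Runs of 26 and 25 kb lay in Ubr2 (chr17:46952001-46978000), a ubiquitin ligase of the N-degron pathway, and Pi4ka (chr16:17294001-17319000), a phosphatidylinositol 4-kinase. Runs of 22, 22 and 21 kb lay in Ercc5, a nuclease of nucleotide excision repair, in Dhx57, a putative RNA helicase, and in Atg2b, an autophagy protein.

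The remaining long runs were of other kinds. The 23-kb run of Zfp810 (chr9:22277001-22300000) had the highest mean, with 7.69, 7.83 and 7.74 RPM in +/+ and 6.63, 7.46 and 6.32 RPM in Δ/D329A. It was followed by the 23-kb run in 2210404O09Rik (chr17:21880001-21903000), with 4.07 ± 0.32 RPM in +/+ and 3.92 ± 0.30 RPM in Δ/D329A (SD, n = 3). A run of 24 kb lay where Spag17 and Wdr3 overlap, and tiles cannot assign its signal to either gene. The 20-kb run in Ttn and the overlapping Gm13938 (chr2:76728001-76748000) had 3.72, 4.03 and 3.74 RPM in +/+. In Δ/D329A the run had 3.66, 3.62 and 3.82 RPM, and the genotypes overlapped. Ttn, the muscle protein titin, had 0.172 ± 0.027 RPKM in +/+ and Gm13938 0.116 ± 0.014 RPKM, far below the median host. The mean H3K27me3 of that run was 0.790 RPM in +/+ and 0.821 RPM in Δ/D329A, compared with 0.110 and 0.066 RPM over Spna2.

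Members lay more often towards the 3′ end of genes and over exons. When genes were divided into 5 equal parts, the share of eligible tiles that were members rose from 0.940% at the start of the gene through 1.92%, 3.05% and 4.07% to 4.86% at its end. Within host genes alone it rose from 2.25% through 4.60%, 7.47% and 10.1% to 11.9%. Over all genes, an exon lay in 78.1% of members and 28.1% of other gene-body tiles, and coding sequence in 73.4% and 22.4%. Within host genes, 2.55% of the tiles with no exon were members, against 14.0% of those with 1 to 200 exonic bases, and 19.4% and 18.9% in the 2 classes with more exonic sequence. The same difference was present in the Δ/D329A libraries, which had no part in choosing the members. Over all eligible tiles their median H3K36me3 was 0.730, 0.688 and 0.735 RPM with no exon and 1.27, 1.28 and 1.26 RPM with an exon. In host genes, which the +/+ libraries chose, the medians were 0.876, 0.885 and 0.892 RPM with no exon and 1.90, 1.97 and 1.84 RPM with an exon. Base composition differed little, with a median GC of 42.9% and 18 CpG in members and 42.25% and 16 CpG in other gene-body tiles, and repeat-masked bases made up 24.2% and 22.4%.

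**Figure D2:**
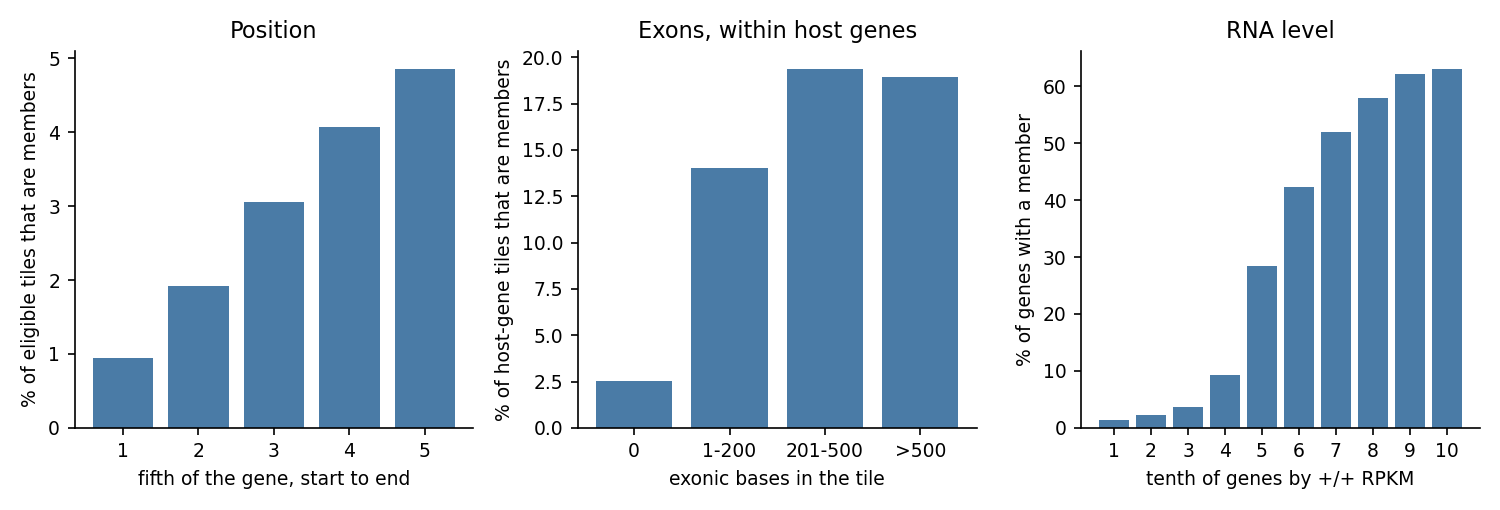
Percent of eligible tiles that were members in 5 equal parts of the gene from start to end (left), percent of host-gene tiles that were members by exonic bases in the tile (middle), and percent of genes with a member in 10 equal groups of genes by +/+ RNA level (right). All 3 shares were lowest at the left of their axis, at 0.940%, 2.55% and 1.40%.

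Most hosts were transcribed, and genes with little RNA seldom hosted a member. Their median RNA level in +/+ was 5.17 RPKM (5.05 in Δ/D329A), and 93.6% were at 1 RPKM or more, whereas the 10181 genes with eligible tiles and no member had a median of 0.463 RPKM and 41.1% (4180 genes) at 1 RPKM or more. In 10 equal groups of genes by RNA level, the share with a member rose from 1.40% in the lowest through 9.31% in group 4 and 28.4% in group 5 to 52.0% in group 7, and then levelled off at 57.9%, 62.2% and 63.1%. Across 13854 genes, mean H3K36me3 of the gene body and RPKM had a Spearman rho of 0.694, which describes the genes of these libraries and is no test, since genes share libraries and length biases. Over the 254 Zfp genes with at least 3 tiles the same rho was 0.179. Gene-body H3K36me3 was inversely related to H3K27me3 (rho -0.702) and related to H3K4me3 with a rho of 0.416.

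Lists of genes with known roles differed in how often they were hosts. All but 1 of the genes listed for the proteasome, chaperones and translation hosted members (9 of the 10 with eligible tiles), as did 12 of 13 genes of RNA polymerase II elongation and splicing, compared with 4846 of 15027 genes in all. In Eif4g2, a translation initiation factor, all 9 eligible tiles were members, with a gene-body mean of 3.89 RPM. Ubr4, a giant ubiquitin ligase, had 33 members, the proteasome subunit Psmd1 14 and the chaperone Hspa4 12, and the spliceosome core factor Prpf8 had 9 members among 12 tiles. Eef1a1, the translation elongation factor, was the exception, with 392.3 ± 94.4 RPKM in +/+ and no member among 4 tiles, the highest of which had 2.73 RPM.

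Genes that act on H3K36 methylation were themselves often hosts (18 of 24). They included the methyltransferases Ash1l with 19 members, Nsd1 with 14, Setd2 with 12 and Whsc1 with 9, the demethylases Kdm2a with 13, Kdm4c with 10 and Kdm4a with 7, and the PWWP proteins Glyr1 with 15 and Psip1 with 7. Dnmt3a had 1 member among 89 tiles and a gene-body mean of 1.57 RPM. Its RNA was 3.78 ± 0.43 RPKM in +/+ (n = 5) and 3.11 ± 0.19 RPKM in Δ/D329A (SD, n = 4), which did not pass the test (limma, adjusted p = 0.355).

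Markers of single cell types seldom hosted members although many were more abundant. Of 18 neuronal markers with eligible tiles, 3 were hosts, namely Ank2 with 22 members, Stmn2 with 3 and Syt1 with 1, while the median neuronal marker had 19.1 RPKM. Snap25, a synaptic vesicle fusion protein, had 59.9 ± 12 RPKM and no tile above 2.88 RPM of H3K36me3. Among oligodendrocyte markers 1 of 12 was a host (Cnp, 3 members) and among astrocyte markers 1 of 8 (Slc1a2, 2 members). The 3 remaining lists with eligible tiles had 0 of 4 (hypothalamic neurons), 0 of 5 (endothelial cells) and 0 of 3 (anterior pituitary). Cx3cr1 was the only host of 5 microglial markers, and its 11 members lay in a gene record that spans other genes. Many neuropeptide genes were too short to have a tile more than 5 kb from a start.

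All 3 marks were then compared at members and elsewhere. H3K36me3 averaged 3.56, 3.63 and 3.56 RPM at members in +/+ and 3.11, 3.27 and 3.03 RPM in Δ/D329A. Other gene-body tiles averaged 0.986, 1.01 and 0.967 RPM in +/+ and 0.947, 0.955 and 0.934 RPM in Δ/D329A, and autosomal tiles 0.723 ± 0.021 and 0.716 ± 0.0035 RPM (SD, n = 3). The values at members were lower in each Δ/D329A library than in each +/+ library, but the +/+ libraries chose the members, which raises their values there, so the difference is described and was not tested. Input at members was 0.932 ± 0.011 RPM in +/+ and 0.935 ± 0.010 RPM in Δ/D329A.

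H3K27me3 was depleted at members in every library. It averaged 0.218, 0.238 and 0.205 RPM in +/+ and 0.166, 0.194 and 0.177 RPM in Δ/D329A, or 0.385 ± 0.026 and 0.327 ± 0.013 of the level in other gene-body tiles (SD, n = 3). Mean H3K4me3 at members was 0.399, 0.441 and 0.395 RPM in +/+ and 0.690, 0.353 and 0.319 RPM in Δ/D329A. The first Δ/D329A value comes from the library with the high autosomal median, and the other 2 were below all +/+ values. In +/+ the median H3K4me3 of members, 0.369 ± 0.036 RPM, was above that of other gene-body tiles, 0.239 ± 0.037 RPM, whereas their mean was below (0.411 ± 0.026 against 0.473 ± 0.016 RPM). Tiles at 3 RPM or more of H3K4me3 were 0.102% of members and 1.20% of other gene-body tiles.

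**Figure D3:**
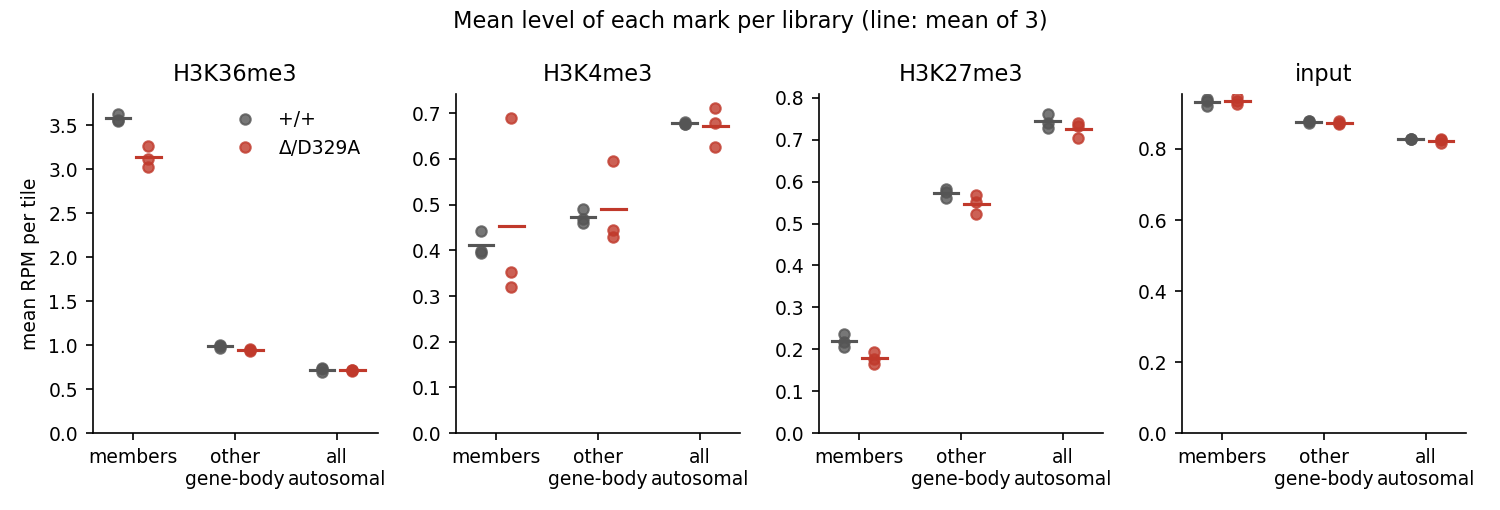
Mean RPM per tile of each mark and of input in the 24 libraries, at members, other gene-body tiles and all autosomal tiles. Each point is a library and each line the mean of 3. At members, H3K36me3 was 3.56 to 3.63 RPM in +/+ and 3.03 to 3.27 RPM in Δ/D329A, and the Δ/D329A library at 0.690 RPM of H3K4me3 stood apart.

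H3K36me3, the mark that chose the members, was also described at tiles chosen in other ways, with no test. When members were chosen from 2 of the +/+ libraries, the library left out averaged 3.44, 3.51 and 3.41 RPM at the chosen tiles, below the 3.57 to 3.6 RPM of the libraries that chose them. The Δ/D329A libraries averaged 2.99 to 3.24 RPM at the same tiles. When the same rule was applied to the Δ/D329A libraries, it found 13824 tiles, of which 12301 were members (48.3% of members and 89.0% of the Δ/D329A tiles). At the tiles that Δ/D329A chose, the +/+ libraries averaged 3.77, 3.88 and 3.78 RPM and the Δ/D329A libraries 3.56, 3.70 and 3.48 RPM. The order was the opposite at the 1523 tiles that Δ/D329A alone chose, with 2.80, 2.84 and 2.84 RPM in +/+ and 3.21, 3.16 and 3.09 RPM in Δ/D329A. Counted for each library alone, 27421, 28340 and 27815 eligible tiles were at 3 RPM or more in +/+ and 16826, 19264 and 13263 in Δ/D329A.

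Other limits were also applied to each genotype. Tiles at 2 RPM or more numbered 109423 in +/+ and 89470 in Δ/D329A, at 4 RPM or more 3621 and 1963, and at 8 RPM or more 203 and 136. In the tiles inside genes below 1 RPM in +/+, the medians were 0.593 RPM in +/+ and 0.596 RPM in Δ/D329A, and over autosomal tiles 0.566 and 0.584 RPM. The share of the H3K36me3 signal that fell in eligible tiles was 49.0%, 49.0% and 49.9% in +/+ and 47.1%, 47.8% and 46.9% in Δ/D329A. RPM values are relative to each library's total, so they show a smaller part of the reads at these tiles and not how much of the mark a cell carried, and a lower enrichment of the libraries and a lower level of the mark cannot be told apart.

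**Figure D4:**
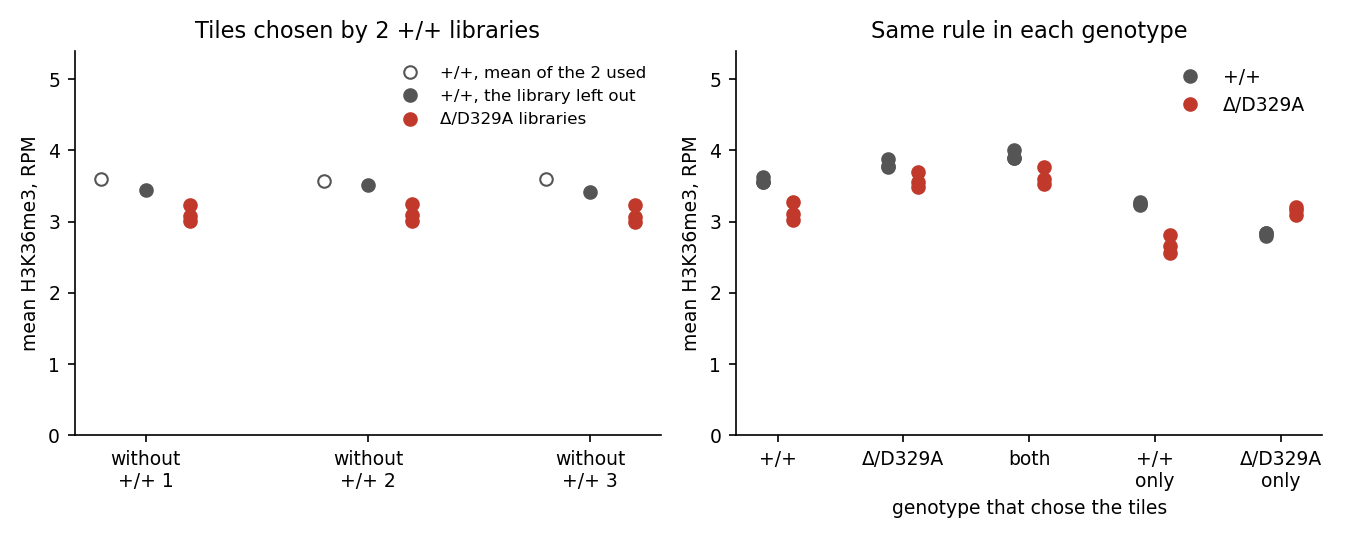
Mean H3K36me3 in RPM at tiles chosen by 2 +/+ libraries (left; open circles, the libraries used; grey, the +/+ library left out; red, the 3 Δ/D329A libraries) and at tiles chosen by the same rule in +/+, in Δ/D329A, in both or in 1 alone (right). The Δ/D329A points lay below the +/+ points except at the tiles chosen in Δ/D329A only.

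H3K4me3 inside genes was rare at members. A mean of at least 3 RPM over the 6 libraries was reached by 26 members (0.102%), in 15 separate sites, against 9596 other gene-body tiles (1.20%). The highest site lay in C130071C03Rik, a long non-coding RNA that hosts Mir9-2, the gene for a microRNA of neural progenitors. It was followed by Sgk1, a serum- and glucocorticoid-regulated kinase, and Sall2, a zinc finger transcription factor. The 200 bases richest in CpG outside untranslated sequence in each of these tiles are given 5′ to 3′ from GRCm38 (RefSeq), the Sall2 stretch on the minus strand, with CpG in capitals.
C130071C03Rik chr13:83738714-83738913: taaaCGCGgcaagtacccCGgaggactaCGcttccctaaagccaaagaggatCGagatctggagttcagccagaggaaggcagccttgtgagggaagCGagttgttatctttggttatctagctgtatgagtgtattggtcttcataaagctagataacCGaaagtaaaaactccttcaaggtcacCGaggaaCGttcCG
Sgk1 chr10:21995350-21995549: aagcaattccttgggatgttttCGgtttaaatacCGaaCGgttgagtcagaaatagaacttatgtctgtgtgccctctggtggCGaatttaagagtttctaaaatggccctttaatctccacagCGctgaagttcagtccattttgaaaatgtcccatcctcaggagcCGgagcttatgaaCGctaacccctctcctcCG
Sall2 chr14:52313666-52313865: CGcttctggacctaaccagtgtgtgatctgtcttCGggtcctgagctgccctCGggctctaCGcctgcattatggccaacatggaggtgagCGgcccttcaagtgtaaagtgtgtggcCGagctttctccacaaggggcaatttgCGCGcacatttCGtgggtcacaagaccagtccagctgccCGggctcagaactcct

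These stretches held 10, 8 and 10 CpG, and their tiles 45, 37 and 34 in 2000 bp, compared with 18 in the median member. The C130071C03Rik tile (chr13:83738001-83740000) lay wholly in exonic sequence and had 44.7, 40.2 and 50.6 RPM of H3K4me3 in +/+ and 23.3, 46.9 and 36.5 RPM in Δ/D329A. The starts of Mir9-2 and of another C130071C03Rik transcript lay within it. The Sgk1 tile (chr10:21995001-21997000) had 23.1, 24.8 and 24.6 RPM in +/+ and 14.6, 31.4 and 15.6 RPM in Δ/D329A, and the Sall2 tile (chr14:52312001-52314000) 14.8, 13.4 and 17.3 RPM in +/+ and 8.78, 14.2 and 12.8 RPM in Δ/D329A. The ranges of the genotypes overlapped in all 3 tiles, and Δ/D329A replicate 1, whose background was high, was the lowest library in each.

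The broadest site was that of Scd2, a fatty acid desaturase of the brain, where 6 members were marked. Its top tile (chr19:44299001-44301000) had 16.1, 15.4 and 16.0 RPM in +/+ and 7.21, 13.3 and 9.62 RPM in Δ/D329A. These groups did not overlap, but the difference did not pass over all tiles (limma, log2 difference -0.69 ± 0.24 SE, adjusted p = 0.430). It was -0.48 without Δ/D329A replicate 1 (limma, adjusted p = 0.45). The next sites lay in Hsp90aa1, a chaperone, with 11.4, 11 and 11.2 RPM in +/+ and 5.96, 8.05 and 10.4 RPM in Δ/D329A, and in Brd2, a bromodomain protein, with 7.08, 7.18 and 6.96 RPM in +/+ and 4.39, 7.81 and 6.91 RPM in Δ/D329A. Further sites lay in Cpeb2, Slu7 and Cpox, and their top tiles in order of level gave log2 differences of -0.89, -0.58 and -1.03 in Δ/D329A, none of which passed (limma, adjusted p = 0.226, 0.940 and 0.0842). The Slu7 difference was -0.39 without Δ/D329A replicate 1 and -0.25 relative to input. Those of Cpeb2 and Cpox also depended on single libraries. Without Δ/D329A replicate 1 those of Cpeb2 and Cpox were -0.47 and -0.58 (adjusted p = 0.683 and 0.744), and without Δ/D329A replicate 2 they were -1.08 and -1.65 and passed (adjusted p = 0.0267 and 2.73e-05), as did Scd2 with -0.91 (adjusted p = 0.0278). With a block for mitochondrial level Cpeb2 and Cpox also passed (-1.12 and -1.34, adjusted p = 0.0244 and 0.0174). Another 5 sites, in Pdxdc1, Uspl1, Zwint, Phc1 and Fry, did not pass either. Of the top tiles of the 14 sites shown here, 6 had all Δ/D329A libraries below all +/+ libraries (Scd2, Hsp90aa1, Cpeb2, Slu7, Pdxdc1 and Uspl1), 0 had them above and 8 overlapped. Such a lower level without overlap was found in 7.33% of all tiles at 3 RPM or more and in 4.45% of all tiles tested.

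Annotated starts were more frequent in these tiles. A GENCODE transcript started in 15 of the 26 marked members (57.7%) and in 14.4% of all members, and among other gene-body tiles the shares were 35.0% at 3 RPM or more and 5.56% in all. The rule excluded tiles within 5 kb of a start in the RNA table, so these were starts of further transcripts inside the genes. At Sgk1, Slu7, Hsp90aa1, Cpox, Brd2 and Fry they belonged to transcripts of the host gene itself, most of them retained-intron or processed transcripts.

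The genotypes were compared for H3K4me3 over all 652886 tiles with enough signal, of which limma called 1823 at an adjusted p under 0.05, or 0.279%, with 344 higher (0.0527%) and 1479 lower (0.227%) in Δ/D329A. Of the 25472 members 21036 were tested and 4 were called, 2 higher and 2 lower, and 531 (2.52%) had an unadjusted p under 0.05, against 32204 of all tiles tested (4.93%). Without Δ/D329A replicate 1 these were 1031 (6.45%) and 39168 (7.16%). The gap was also smaller without Δ/D329A replicate 3 (4.39% and 5.21%) and with median centring (4.20% and 5.13%). Without Δ/D329A replicate 2 the shares were 3.27% and 6.19%. Without the filter on low signal the order reversed, with 2.91% of members and 2.22% of all tiles. The size of the gap thus depended on the libraries and the scaling, and not on replicate 1 alone, and its direction on the filter. The median log2 difference was 0.06 at members and 0.01 over all tiles. It was -0.24 and -0.05 without Δ/D329A replicate 1, and -0.01 and -0.07 with median centring of all libraries. At members it was 0.21 without Δ/D329A replicate 2 and 0.25 without Δ/D329A replicate 3, so its sign depended on the fit. In the fit without Δ/D329A replicate 1, 4 members were called also (0.0250% of those tested, against 0.188% of all tiles).

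The largest difference lay in Cdk5rap1, a mitochondrial tRNA-modifying enzyme. The member (chr2:154352001-154354000) had 0.443, 0.466 and 0.657 RPM of H3K4me3 in +/+ and 2.32, 4.50 and 3.36 RPM in Δ/D329A. All Δ/D329A libraries were above all +/+ libraries, by 2.46 ± 0.34 on the log2 scale (SE, limma, adjusted p = 5.2e-09). The neighbouring tile (chr2:154353001-154355000), whose 2.03 RPM of H3K36me3 in +/+ put it below the limit, had 0.885, 0.931 and 0.394 RPM in +/+ and 4.45, 7.34 and 6.91 RPM in Δ/D329A, a log2 difference of 2.96 ± 0.32 (adjusted p = 1.9e-16). It held the start of a retained-intron transcript of the gene and 56 CpG. The tile on the other side (chr2:154351001-154353000), also a member, had 0.190, 0.266 and 0.460 RPM in +/+ and 1.0, 0.552 and 0.323 RPM in Δ/D329A, with an adjusted p of 0.999995. Among these tiles, the higher H3K4me3 thus lay in the called member and in the tile with the transcript start, and tiles further out were not examined.

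Other values at the Cdk5rap1 member moved less. Its H3K36me3 was 4.11, 3.56 and 3.56 RPM in +/+ and 3.26, 2.61 and 3.25 RPM in Δ/D329A, and its input 0.884, 1.20 and 1.05 RPM in +/+ and 0.927, 0.484 and 0.876 RPM in Δ/D329A. The RNA of Cdk5rap1 was 1.5 ± 0.46 RPKM in +/+ (n = 5) and 1.24 ± 0.35 RPKM in Δ/D329A (SD, n = 4; limma, adjusted p = 0.750). Over the whole gene body, H3K4me3 differed by 1.14 ± 0.21 on the log2 scale and did not pass over all genes (adjusted p = 0.147).

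The 3 other called members were smaller differences. The member in Snrk, an AMPK-related kinase (chr9:122164001-122166000), had 0.190, 0.20 and 0.460 RPM in +/+ and 1.51, 0.71 and 0.968 RPM in Δ/D329A (log2 difference 1.61 ± 0.41 SE, limma, adjusted p = 0.0349). Its highest value was that of Δ/D329A replicate 1, without which the difference was 1.35 and did not pass (adjusted p = 0.389). The member in Kdm4a, a demethylase of H3K9 and H3K36 (chr4:118172001-118174000, intronic), had 2.02, 1.53 and 2.63 RPM in +/+ and 1.25, 0.71 and 0.323 RPM in Δ/D329A (-1.45 ± 0.35, adjusted p = 0.0179). The member in Zfp236 (chr18:82616001-82618000) had 1.01, 2.0 and 1.97 RPM in +/+ and 0.627, 0.394 and 0.387 RPM in Δ/D329A (-1.59 ± 0.37, adjusted p = 0.0106). In all 3 the genotypes did not overlap. Without Δ/D329A replicate 1 the calls in Cdk5rap1, Kdm4a and Zfp236 held, with log2 differences of 2.70, -1.85 and -1.78 (limma, adjusted p = 0.000186, 0.0265 and 0.0419).

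Zfp236 resembled Cdk5rap1 in that the stronger signal lay next to the member. The tile after it (chr18:82617001-82619000), with 2.81 RPM of H3K36me3 in +/+, had 4.62, 7.18 and 8.08 RPM of H3K4me3 in +/+ and 1.69, 1.97 and 1.23 RPM in Δ/D329A (-1.94 ± 0.29, adjusted p = 1.5e-07), and a further Zfp236 transcript started inside both tiles. Neighbouring tiles share 1000 bp, so each such pair is 1 region and not independent. The calls in Kdm4a, Snrk and Zfp236 were each lost under some of the alternatives, and that in Cdk5rap1 under none of the 12 run.

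**Figure D5:**
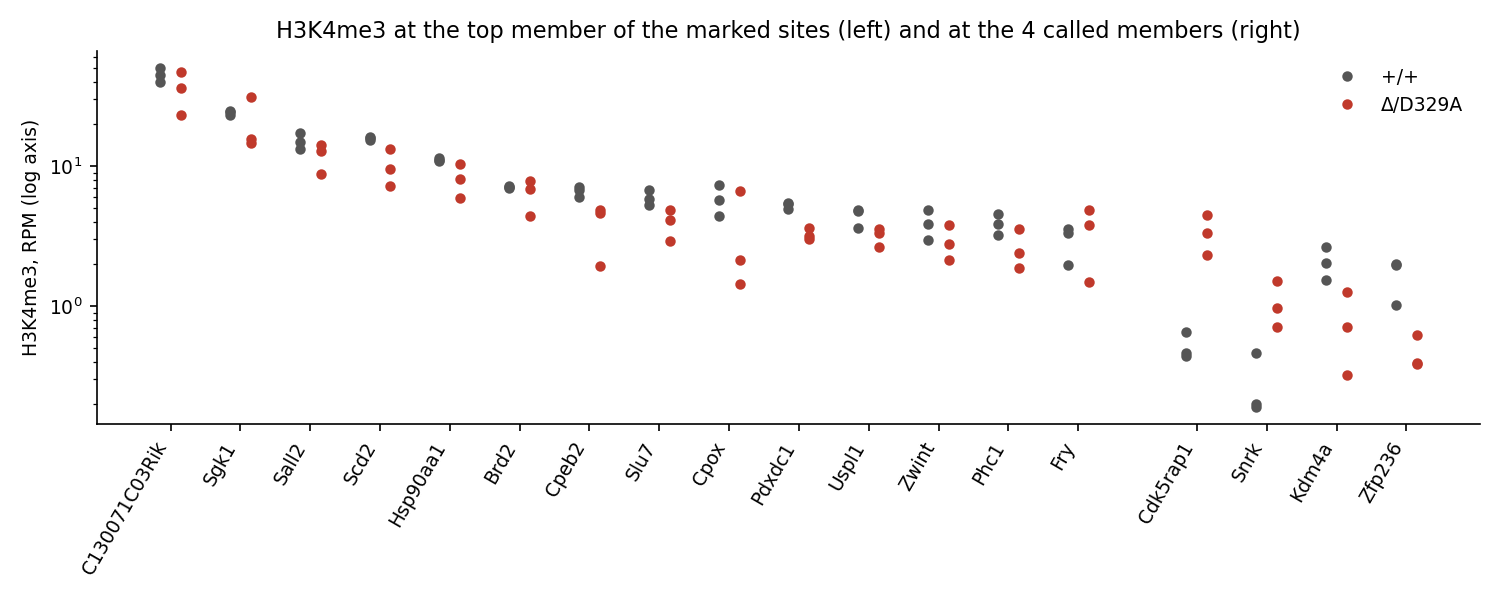
H3K4me3 in RPM on a log axis in the 3 +/+ and 3 Δ/D329A libraries, at the top member of 14 of the 15 marked sites in order of level (left) and at the 4 members called between genotypes (right). Each point is a library. The groups did not overlap at the 4 called members, nor at 6 of the marked sites (Scd2, Hsp90aa1, Cpeb2, Slu7, Pdxdc1 and Uspl1), where Δ/D329A was lower.

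No member reached 3 RPM of H3K27me3 over the 6 libraries, against 2697 other gene-body tiles (0.338%), and 173 members (0.679%) were at 1 RPM or more against 16.0% of other gene-body tiles. The highest lay in Spnb4, a spectrin of the axon initial segment (chr7:27370001-27372000), with 2.96, 2.88 and 2.38 RPM in +/+ and 2.55, 1.68 and 2.59 RPM in Δ/D329A. Cyp4x1, a cytochrome P450 of the brain (chr4:115108001-115110000), had 2.27, 2.22 and 1.74 RPM in +/+ and 1.68, 2.29 and 2.18 RPM in Δ/D329A while its H3K36me3 was 4.72 ± 0.58 RPM in +/+. The genotypes overlapped in both tiles. Gm13157 followed with 1.63 ± 0.36 RPM in +/+ and 2.12 ± 0.24 RPM in Δ/D329A, little above its input of 1.47 ± 0.067 and 1.67 ± 0.081 RPM. The log2 difference there was 0.38, and 0.21 relative to input. Rreb1, a zinc finger transcription factor, had 1.81 ± 0.42 and 1.48 ± 0.39 RPM (SD, n = 3). The member in Ass1, the argininosuccinate synthase of the urea cycle (chr2:31479001-31481000), had 2.39, 2.10 and 2.28 RPM in +/+ and 1.55, 1.38 and 1.42 RPM in Δ/D329A. These groups did not overlap, yet the difference did not pass over all tiles (limma, log2 difference -0.61 ± 0.22 SE, adjusted p = 0.632). The input of that tile was lower in +/+, with 0.763 ± 0.27 RPM against 1.27 ± 0.22 RPM (SD, n = 3), and the difference relative to input was -1.31 (adjusted p = 0.676).

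Over 1927934 tiles tested for H3K27me3, limma called 560, or 0.0290% (0.0147% higher and 0.0143% lower in Δ/D329A). The filter on low signal kept 4254 of the 25472 members, and 0 of these were called, with 263 (6.18%) at an unadjusted p under 0.05, against 122312 of all tiles tested (6.34%). The median log2 difference was -0.15 at the members tested and -0.04 over all tiles. The tested members were those with the most H3K27me3 and do not stand for the rest. Without the filter all 25472 members were tested and 0 were called, against 0.0210% of all tiles. An unadjusted p under 0.05 was then found in 7.86% of members and 6.34% of all tiles (limma). The median log2 differences were -0.21 and -0.06, in tiles that mostly held few reads.

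Taken over whole gene bodies, neither mark gave a host gene that limma called with all libraries and no block. For H3K4me3 this depended on the fit, since limma called 19 hosts with a replicate block (0.399%, against 0.837% of all genes) and 8 without Δ/D329A replicate 2 (0.168%, against 0.282%). It called 2 each without +/+ replicate 1 or 3 (0.0420%, against 0.166% and 0.188% of all genes) and 1 without Δ/D329A replicate 3 (0.0210%, against 0.0794%). For H3K4me3, limma called 6 of 13854 genes (0.0433%, with 0.0144% higher and 0.0289% lower) and 0 of 4758 hosts, with 74 hosts (1.56%) and 323 of all genes (2.33%) at an unadjusted p under 0.05, and edgeR and DESeq2 on the recovered reads called 0 and 1 hosts (0 and 0.0797% of all genes tested). Without Δ/D329A replicate 1, limma called 0 genes, with 574 hosts (12.1%) and 1687 of all genes (12.2%) at an unadjusted p under 0.05, and the median log2 difference of hosts moved from 0.04 to -0.17. For H3K27me3 limma called 0 genes and 0 hosts, with 977 of the 4758 hosts (20.5%) and 1903 of all 13854 genes (13.7%) at an unadjusted p under 0.05. Hosts had the higher share in every fit, but the size of this gap depended on the fit. The shares were 11.2% and 10.9% with median centring in limma, and 9.16% and 8.77% by DESeq2. They were 9.60% and 8.14% without Δ/D329A replicate 1, and 23.5% and 17.2% without Δ/D329A replicate 2. On the reads, edgeR called 0 hosts among 3 genes (0.0217% of all genes tested) and DESeq2 10 hosts among 56 genes (0.406%). The median log2 difference of H3K27me3 was -0.19 over hosts and -0.09 over all genes tested. These values depend on the 0.1 RPM added before the log, and with 1 RPM added they were -0.04 and -0.03.

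RNA of the host genes was compared last. Over 17839 genes tested, limma called 19 at an adjusted p under 0.01 (0.107%, with 0.0841% higher and 0.0224% lower in Δ/D329A), and 0 of the 4779 hosts tested, of which 185 (3.87%) had an unadjusted p under 0.05, against 1360 of all genes tested (7.62%). The count tests on the recovered reads called more, with 11 hosts among 77 genes by edgeR (0.432% of all genes tested) and 61 hosts among 245 genes by DESeq2 (1.37%). The lower share of hosts at an unadjusted p under 0.05 depended on the fit. It was 14.6% against 13.5% of all genes by edgeR, 14.5% against 12.4% by DESeq2 and 13.3% against 13.8% with median centring in limma. Hosts kept the lower share whenever a library was left out, with 8.25% against 9.05% without +/+ replicate 5. The median log2 difference was -0.02 over hosts and 0.06 over all genes. Of the genes of the longest runs named above, Ttn had the smallest adjusted p, with a log2 difference of -0.88 ± 0.18 SE (limma, adjusted p = 0.175).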

How the data were processed

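ChIP-seq and RNA-seq of whole hypothalamus were analysed; the bisulfite libraries and other tissues of the series were not used here. The authors made ChIP libraries by ultra-low-input native ChIP with micrococcal nuclease, trimmed 75 bp single-end reads, mapped them to GRCm38 and quantitated them in SeqMonk, and the submitters' processing notes name Trim Galore 0.4.3, Bowtie2 2.3.2 and HISAT2 2.0.5. The study's methods name other versions and a ChIP correction to the largest library, and which applied to the deposited tables was not settled. The deposited ChIP signal is RPM (reads scaled to 1000000 uniquely mapped reads) per 2000-bp tile, not divided by length and with input not subtracted, and all values were whole reads within 0.01. The deposited RNA values are log2 RPKM of 25965 genes from rRNA-depleted RNA, with a floor of 0.9 reads, and all were whole reads within 0.02. The study left out 1 Δ/D329A RNA library. The RNA kit is described as strand-specific, but whether the counting used strand is not given in the sources used here, so overlapping genes may share reads.

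Replicates were individual animals, and p-values measure the spread between them. The lengths of all 19 autosomes equalled those of GRCm38, from whose RefSeq sequence CpG, repeat-masked bases and motifs were read. Exons, coding sequence and transcript starts came from the GENCODE annotation of that build. The members and gene lists were chosen with earlier results of these data known. The named genes were the 10 longest runs, the 5 members highest in H3K36me3 and the 5 highest in H3K27me3 (1 per gene), the 10 sites highest in H3K4me3 (1 of which is not reported here), and the members called, and 5 marked sites beyond these were named after their values were seen.

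H3K36me3 and input of +/+ chose the members and were described without a test. H3K4me3, H3K27me3 and RNA were fitted with limma 3.58.1 in R 4.3.3 (trend, two-sided, Benjamini-Hochberg over all features), on log2(RPM + 0.1) for tiles with a mean of at least 0.3 RPM and for genes with at least 3 tiles, and on the deposited log2 RPKM for genes at 0.1 RPKM or more in 4 libraries. Log2 differences on this scale understate changes at low values. Calls were at an adjusted p under 0.05 (ChIP) or 0.01 (RNA, as in the study, mitochondrial genes left out). Alternatives were edgeR 4.0.16 and DESeq2 1.42.0 on recovered reads, other limits, filters, pseudocounts, scalings and blocks, and leaving out each library. The scripts were tested on simulated data.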

Additional observations from a re-analysis of the deposited data

Results flagged for a closer look

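RNA levels of the named genes were examined in 34 groups of 4 or 5 libraries, and 4 groups had a library far from the rest of its group. Chance would give this in about 1 of 20 groups. All were RNA levels of +/+ animals. Ubr2 had 4.24 RPKM in replicate 3 against 5.60 to 6.23 RPKM in the others, and Ercc5 had 2.78 RPKM in replicate 5 against 4.02 to 4.63 RPKM. Pi4ka had 14.5 RPKM in replicate 1 against 11 to 11.9 RPKM, and Cdk5rap1 had 2.30 RPKM in replicate 1 against 1.22 to 1.45 RPKM. None of these genes was called between genotypes by limma, with or without that library.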

How the results depend on the processing

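The number of members moved with the rule, to 109423 at an H3K36me3 limit of 2 RPM, 3621 at 4 RPM and 13824 in the Δ/D329A libraries. Members marked by H3K4me3 numbered 99 at a limit of 1.5 RPM, and 226 and 3 at the H3K36me3 limits of 2 and 4. Members called for H3K4me3 numbered 29 at the limit of 2 (0.0357% of those tested) and 0 at 4, against 0.279% of all tiles. They numbered 2 with median centring (0.117% of all tiles tested), 1 relative to input (0.0930%) and 7 with a block for mitochondrial level (0.278%). When a library was left out they numbered 1 to 14 (14, or 0.0643% of members, without Δ/D329A replicate 2, against 0.540% of all tiles). For H3K27me3 1 member was called at the limit of 2 (0.0046%, against 0.0290% of all tiles) and 1 with the mitochondrial block (0.0235%, against 0.0345%). When a library was left out 0 to 6 were called (6, or 0.139%, without Δ/D329A replicate 2, against 0.106% of all tiles). Host genes called for gene-body H3K4me3 numbered 1 at the limit of 2 (0.0128%, against 0.0433% of all genes) and 1 by DESeq2 (0.0210%, against 0.0797%). They numbered 0 to 8 when a library was left out (8, or 0.168%, without Δ/D329A replicate 2, against 0.282% of all genes). For H3K27me3 they numbered 10 by DESeq2 (0.210%, against 0.406%). Host genes called in RNA numbered 2 at the limit of 2 (0.0253%, against 0.107% of all genes) and 3 with median centring (0.0628%, against 0.191%). They numbered 11 by edgeR (0.230%, against 0.432%) and 61 by DESeq2 (1.28%, against 1.37%). The cause of these shifts was not tested.

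The sample labels do not say whether animals with the same replicate number shared more than the number. The correlation of their deviations ran from -0.25 to 0.23 for H3K4me3 and from -0.071 to 0.13 for RNA. With so few animals per genotype, these correlations cannot settle that question. With a replicate block 19 hosts (0.399%) were called for gene-body H3K4me3 among 116 of all genes (0.837%), and 5 members per tile (0.0238%) among 1968 of all tiles (0.301%), and 0 in the remaining fits.

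Of the single tiles, H3K4me3 at Brd2 reversed to 0.053 without Δ/D329A replicate 1 and ran from there to -0.3554 when another library was left out. H3K27me3 at Cyp4x1 reversed to 0.03155 with median centring and 0.05777 relative to input, and ran from -0.1348 to 0.1135 when a library was left out. The calls were lost under 6 alternatives for Kdm4a, 9 for Snrk and 4 for Zfp236. Calls were gained for Scd2 without Δ/D329A replicate 2, and for Cpeb2 and Cpox in that fit and with the mitochondrial block. Members held few reads for H3K27me3 and H3K4me3, and whether this limited the calls was not tested.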
